A study of Mus musculus with 8 samples.

Results

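The genes that build and steer the B cell antigen receptor were followed in mouse cells sorted as lacking CD4 and CD8, a gate meant for early T lineage cells. They are 9 genes, Ms4a1, Cd79a, Cd79b, Pax5, Ebf1, Blk, Ighm, Fcer2a and Cr2. Every probe set that the platform annotation gives 1 of these symbols, and no other, was taken as a member. That rule found 23 of the 22690 probe sets in the table, 11 of them for Ighm, and another 4 probe sets that carry Ighm beside other symbols were left out. Each probe set was kept on its own.

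The series holds 8 Affymetrix arrays of total RNA in 4 groups of 2. The groups are emigrants under TCDD, emigrants under oil, thymocytes under TCDD and thymocytes under oil. All mice were labelled female C57BL/6, aged 6 to 8 weeks. TCDD (2,3,7,8-tetrachlorodibenzo-p-dioxin, a dioxin that binds the aryl hydrocarbon receptor) was injected into the peritoneum at 10 µg/kg in corn oil, and the oil mice received corn oil alone. All groups shared an injection of the dye FITC into the thymus 5 days later and a sort 24 h after it, so that dyed cells found in the spleen are called thymus emigrants. The series design names a FITC-positive gate and the sample text names the CD4 and CD8 gate only, and no B cell marker is named in either. Nothing in the labels ties the 2 arrays of a group to different mice or pools. The p-values therefore reflect the spread between these arrays alone, part of which may be technical. Groups here follow the titles, although some other fields differ from them. For emigrants oil 1 the treatment is given as TCDD, for emigrants oil 2 as Dioxane 2, and for emigrants oil 2 and TCDD 1 the tissue is given as thymus.

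The B cell antigen receptor consists of a membrane immunoglobulin, whose mu heavy chain is encoded by Ighm, and of the signalling chains CD79a and CD79b. Src family kinases such as BLK phosphorylate these chains, and the transcription factors EBF1 and PAX5 set and hold B lineage identity. A thymus normally contains a small B cell population beside its T lineage cells, and transcripts of the unrearranged mu constant region are also known from T lineage cells.

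All values below are deposited log2 values made with RMA, a method that corrects background, equalises the arrays and summarises the probes of a set. The array medians lay between 4.81 and 4.91, and a probe set below its array's median is called dim here. Dim says nothing about absence, since these values hold no detection call. A pair of arrays goes against a label. Eif2s3y, a gene of the Y chromosome, was at 7.46 in emigrants TCDD 2 and 7.12 in emigrants oil 2, against 2.69 to 2.95 on the other 6 arrays, although all mice were labelled female. Differences of the brighter members between the sources are therefore given with and without these 2 arrays, as are those of several related genes. The T lineage markers Cd3g and Thy1, chosen after their values were seen, were bright on all arrays. Cd3g lay at 8.50 to 9.33 in emigrants and 9.36 to 9.55 in thymocytes, and Thy1 at 8.45 to 8.84 in emigrants and 9.25 to 9.41 in thymocytes. They do not stand for all T cell markers. Cd3e lay at 8.30 to 8.91 in emigrants and 8.09 to 8.34 in thymocytes. Of 13 T cell probe sets, 3 were dim on all arrays. The median log2 difference of the 13 between emigrants and thymocytes, averaged over both treatments, was -0.02. Among the B cell identity genes themselves, Cd79a, Pax5, Ebf1 and Cr2 were dim on all 8 arrays with every probe set they have.

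Start regions are shown for Cd79a, the dim partner chain of the brighter Cd79b, and for Cr2, because their windows alone among the members held both motifs marked in capitals. RefSeq promoter windows (GRCm38.p6, 250 bases before to 50 after the annotated start, 5′ to 3′ on the gene's strand) were found for 5 of the 9 genes, Cd79a, Cr2, Pax5, Ebf1 and Fcer2a. Cd79a lies on the plus strand at chr7:24897247-24897546 and Cr2 on the minus strand at chr1:195176670-195176969. Capitals mark matches to GGAAGT (a core of ETS family sites) or CAGGTG (an E-box of E proteins), read on both strands as ACTTCC and CACCTG.
Cd79a: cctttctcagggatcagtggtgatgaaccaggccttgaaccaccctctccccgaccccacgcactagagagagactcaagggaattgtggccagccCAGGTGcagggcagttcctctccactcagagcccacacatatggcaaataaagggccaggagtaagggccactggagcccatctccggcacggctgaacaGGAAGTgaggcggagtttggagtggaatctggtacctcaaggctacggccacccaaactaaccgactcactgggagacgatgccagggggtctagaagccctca
Cr2: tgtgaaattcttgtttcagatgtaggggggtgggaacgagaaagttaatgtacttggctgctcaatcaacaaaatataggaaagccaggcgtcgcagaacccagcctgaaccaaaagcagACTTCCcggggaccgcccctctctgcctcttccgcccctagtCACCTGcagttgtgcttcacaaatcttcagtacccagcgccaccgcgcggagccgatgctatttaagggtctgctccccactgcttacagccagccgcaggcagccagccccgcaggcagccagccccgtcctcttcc
Each window held 1 match to each motif. Among 32851 windows of this length in the table, 23.8% held GGAAGT or its complement and 20.2% held CAGGTG or its complement. The octamer ATGCAAAT, present in 1.74% of all windows, and the palindrome CCCNNGGG, an EBF core present in 13.7%, were not found in the windows of the 5 genes. A match is a run of letters and no evidence of binding. Only these exact letters were sought, so a missing match does not mean that a window lacks a site of that factor family. The array probes of these genes were dim throughout, so the windows describe the genes and not a difference between groups.

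**Figure D1:**
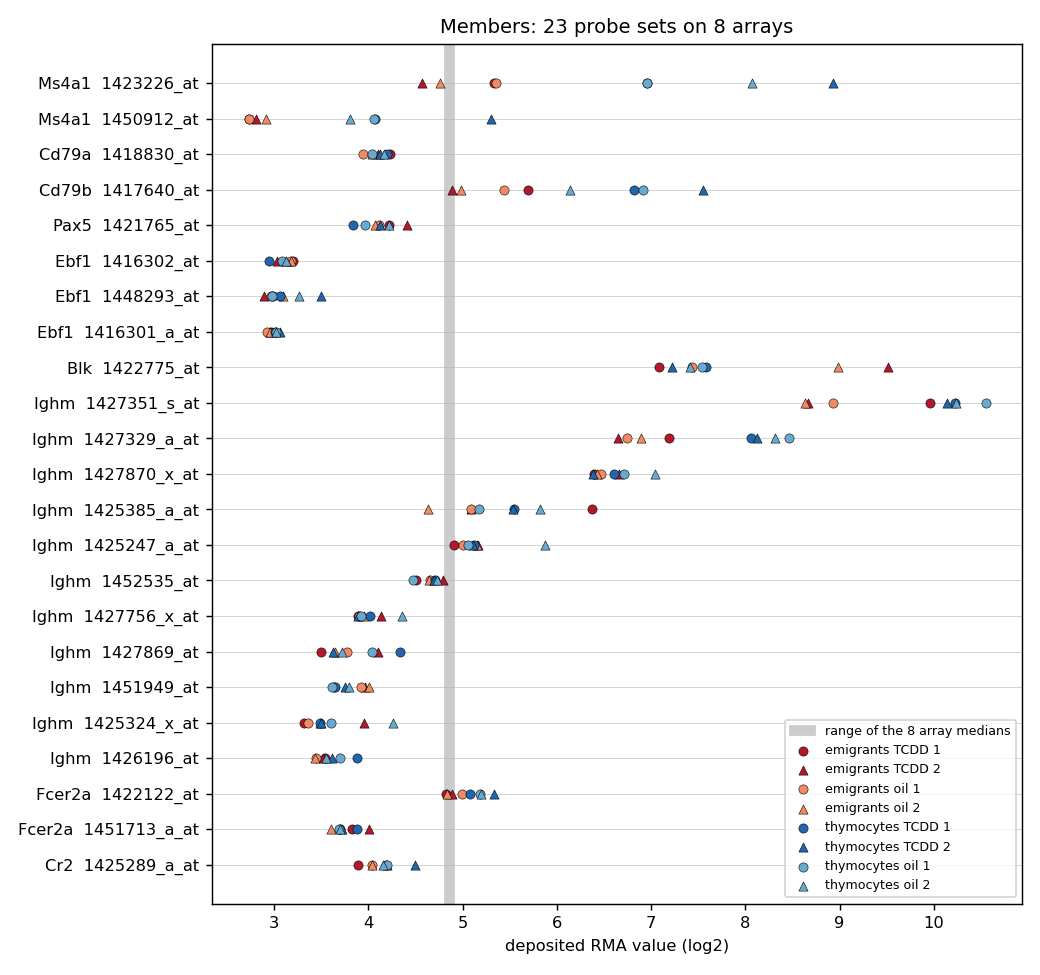
Deposited log2 RMA values (x axis) of the 23 member probe sets (rows) on the 8 arrays; colours give the group, circles the array numbered 1 and triangles the array numbered 2, and the grey band spans the array medians from 4.81 to 4.91. The 13 dim rows lie left of the band throughout, while Ms4a1, Cd79b, Blk and Ighm reach well to its right.

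The plot of all member probe sets shows how unequal the members were. Of the 23 probe sets, 13 lay below the array median on all 8 arrays, 5 above it on all 8, and 5 on both sides. The 13 dim ones ranged from 2.89 to 4.79, and none of them varied by more than 0.94 over the 8 arrays.

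Ms4a1 encodes CD20, a surface protein of B cells. Its probe set 1423226_at was at 5.33 and 4.57 in emigrants TCDD, 5.36 and 4.76 in emigrants oil, 6.96 and 8.93 in thymocytes TCDD, and 6.96 and 8.07 in thymocytes oil. All 4 thymocyte arrays lay above all 4 emigrant arrays, and the thymocyte arrays numbered 2 were the highest. Under oil the means were 5.06 ± 0.43 in emigrants and 7.51 ± 0.78 in thymocytes (SD, n = 2 each), a log2 difference of -2.45 (SE 0.71), or 5.47-fold lower in emigrants (limma adjusted p = 0.37). Under TCDD they were 4.95 ± 0.54 in emigrants and 7.94 ± 1.4 in thymocytes, a difference of -2.99 (limma adjusted p = 0.417). One array of each emigrant group lay below its array median, so these folds rest in part on levels near the dim range. Without the emigrant array numbered 2 the differences were -2.15 under oil and -2.61 under TCDD. In bulk samples like these, fewer cells of a type and less RNA per cell cannot be told apart. The other probe set, 1450912_at, was read at 2.73 and 2.81 in emigrants TCDD, 2.74 and 2.91 in emigrants oil, 4.07 and 5.30 in thymocytes TCDD, and 4.06 and 3.81 in thymocytes oil. It had the same order of sources, with log2 differences of -1.11 under oil and -1.92 under TCDD, but only thymocytes TCDD 2 lay above the array median. No fold is given for it.

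Cd79b, a signalling chain of the receptor, has 1 probe set, 1417640_at. It was at 5.69 and 4.89 in emigrants TCDD, 5.44 and 4.98 in emigrants oil, 6.82 and 7.55 in thymocytes TCDD, and 6.91 and 6.14 in thymocytes oil. Again no emigrant array reached the lowest thymocyte array. Under oil the means were 5.21 ± 0.32 in emigrants and 6.53 ± 0.54 in thymocytes, a log2 difference of -1.31 (SE 0.41), or 2.49-fold lower in emigrants (limma adjusted p = 0.417). Under TCDD they were 5.29 ± 0.57 in emigrants and 7.18 ± 0.52 in thymocytes, a difference of -1.89 (limma adjusted p = 0.386). Without the emigrant array numbered 2 the differences were -1.09 under oil and -1.49 under TCDD. Its partner chain Cd79a was dim. Cd79a 1418830_at was at 4.23 and 4.10 in emigrants TCDD, 3.94 and 4.04 in emigrants oil, 4.20 and 4.12 in thymocytes TCDD, and 4.04 and 4.17 in thymocytes oil. Its 8 values spanned 0.3, all in the dim range, and the log2 difference under oil was -0.11 (SE 0.13).

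Ighm encodes the constant region of the mu heavy chain. Immunoglobulin genes form a family of near-identical segments, so which transcripts each of its 11 probe sets reads is uncertain, more so for names ending in _s_at (probes shared by several transcripts) and _x_at (probes that may cross-hybridise). The probe set 1427351_s_at was at 9.96 and 8.67 in emigrants TCDD, 8.93 and 8.63 in emigrants oil, 10.23 and 10.14 in thymocytes TCDD, and 10.55 and 10.24 in thymocytes oil. All thymocyte arrays were above all emigrant arrays, with emigrants TCDD 1 closest to them. The log2 difference under oil was -1.61 (SE 0.4), or 3.06-fold lower in emigrants (limma adjusted p = 0.322). Under TCDD it was -0.87 (SE 0.4, limma adjusted p = 0.701), and -0.22 without emigrants TCDD 2. The oil difference was -1.46 without emigrants oil 2.

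The Ighm probe set 1427329_a_at was at 7.19 and 6.65 in emigrants TCDD, 6.74 and 6.89 in emigrants oil, 8.06 and 8.12 in thymocytes TCDD, and 8.46 and 8.32 in thymocytes oil. The arrays of each group lay close together and the sources did not overlap. Under oil the means were 6.82 ± 0.1 in emigrants and 8.39 ± 0.1 in thymocytes (SD, n = 2 each), a log2 difference of -1.57 (SE 0.2), or 2.97-fold lower in emigrants. This had the smallest p of the members (limma adjusted p = 0.188). Under TCDD the means were 6.92 ± 0.38 in emigrants and 8.09 ± 0.04 in thymocytes, a difference of -1.17 (SE 0.2, limma adjusted p = 0.358). Without the emigrant array numbered 2 the differences were -1.64 under oil and -0.90 under TCDD.

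The other Ighm probe sets had smaller differences between the sources under oil. The probe set 1427870_x_at stayed between 6.38 and 7.04 on all arrays, with a log2 difference of -0.43 under oil and 0.04 under TCDD. The probe set 1425385_a_at was at 6.37 and 5.09 in emigrants TCDD, 5.09 and 4.63 in emigrants oil, 5.55 and 5.54 in thymocytes TCDD, and 5.17 and 5.82 in thymocytes oil. Its groups overlapped except under oil, and its highest value was in emigrants TCDD 1, without which the difference under TCDD was -0.46 in place of 0.19. The probe set 1425247_a_at stayed between 4.91 and 5.88, with thymocytes oil 2 the highest. The remaining 6 Ighm probe sets were dim on all arrays, between 3.32 and 4.79.

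**Figure D2:**
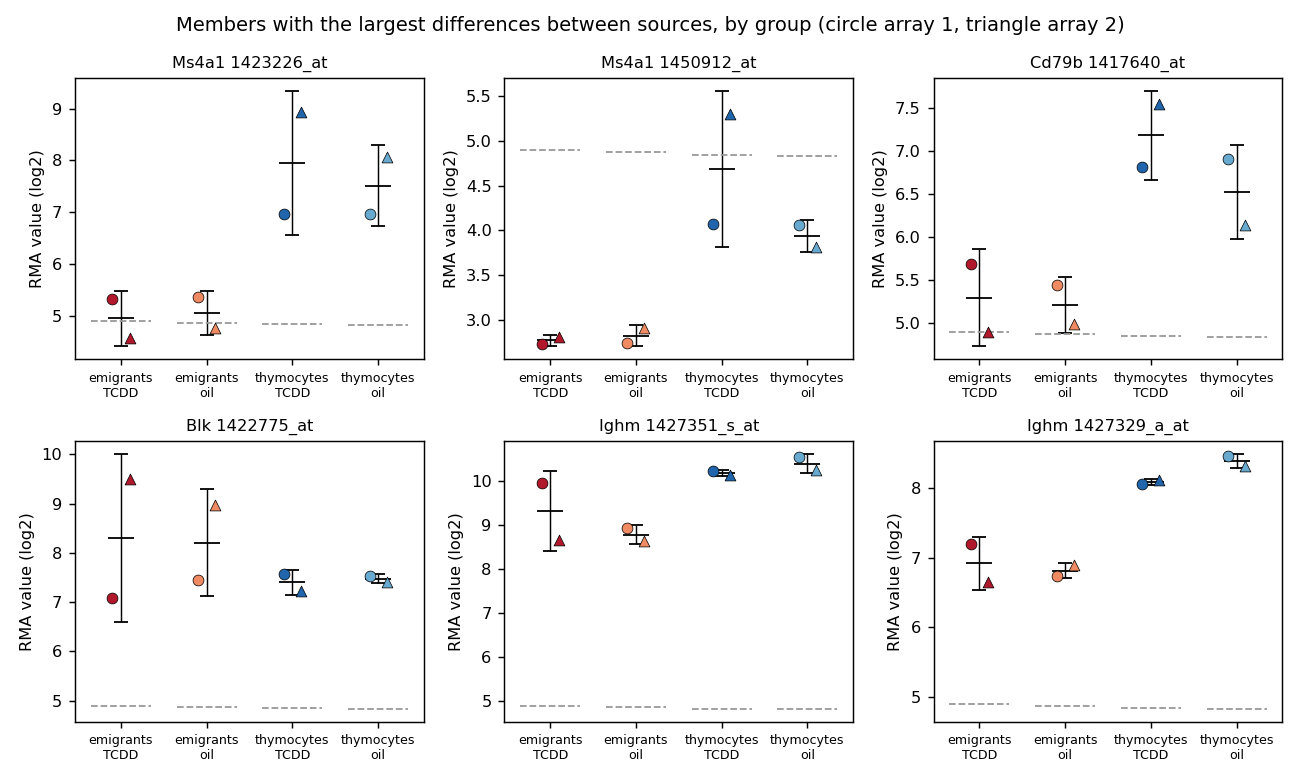
Log2 RMA values (y axis, each panel with its own range) of the 6 member probe sets with the largest differences between the sources, by group; circles and triangles are the arrays numbered 1 and 2, the long bars are means, the whiskers 1 SD (n = 2), and the dashed lines the mean of the group's array medians. Ms4a1, Cd79b and Ighm sit higher in both thymocyte groups, while Blk is high only in the emigrant arrays numbered 2, at 9.51 and 8.98.

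Blk, the Src family kinase of B cells, which some T lineage subsets also express, was bright on all 8 arrays. Its probe set 1422775_at was at 7.09 and 9.51 in emigrants TCDD, 7.44 and 8.98 in emigrants oil, 7.58 and 7.22 in thymocytes TCDD, and 7.54 and 7.41 in thymocytes oil. The 2 high values were those of the arrays with the Eif2s3y signal, and the other 6 arrays spanned 7.09 to 7.58. The mean of 13 macrophage probe sets was also highest on these arrays, at 6.97 in emigrants TCDD 2 and 6.63 in emigrants oil 2, against 5.64 to 6.26 on the other 6, and its part in the Blk values was not tested. The log2 difference between emigrants and thymocytes was 0.73 under oil and 0.90 under TCDD (SE 0.83 each, limma adjusted p = 0.855 and 0.884). Without emigrants oil 2 it was -0.04, and without emigrants TCDD 2 it was -0.31.

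The transcription factors of B cell identity were dim. Pax5 1421765_at was at 4.22 and 4.41 in emigrants TCDD, 4.11 and 4.07 in emigrants oil, 3.84 and 4.12 in thymocytes TCDD, and 3.97 and 4.22 in thymocytes oil. Its emigrant and thymocyte arrays overlapped under oil (log2 difference -0.01) and not under TCDD (0.33, SE 0.17, limma adjusted p = 0.731). The 3 probe sets of Ebf1 lay between 2.89 and 3.50 on all arrays, and their log2 differences between the sources under oil were -0.09, -0.08 and 0.07.

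The surface receptors of mature B cells were dim or near the array medians. Fcer2a encodes CD23, the low-affinity receptor of immunoglobulin E. Its probe set 1422122_at was at 4.83 and 4.89 in emigrants TCDD, 4.99 and 4.84 in emigrants oil, 5.08 and 5.33 in thymocytes TCDD, and 5.19 and 5.20 in thymocytes oil. All thymocyte arrays lay above all emigrant arrays, but by little (log2 difference -0.28 under oil and -0.34 under TCDD, SE 0.14 each, limma adjusted p = 0.677 and 0.681). The second Fcer2a probe set, 1451713_a_at, stayed between 3.61 and 4.01. Cr2 encodes CD21, the complement receptor of the B cell coreceptor. Its probe set 1425289_a_at was at 3.89 and 4.20 in emigrants TCDD, 4.04 and 4.04 in emigrants oil, 4.19 and 4.50 in thymocytes TCDD, and 4.20 and 4.16 in thymocytes oil, and its log2 differences were -0.14 under oil and -0.30 under TCDD.

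Over all 23 member probe sets, 0 passed an adjusted p of 0.05 between emigrants and thymocytes, under oil or under TCDD (limma), as did 0.0% of the 22626 probe sets tested. Same-numbered arrays deviated together within a source, and this fit has no block for that, so those shared differences enter its SEs. An alternative limma fit had such a block within each source, a pairing that the labels do not state. That block takes the spread between replicates out of the SEs, so its p-values can be too small for a comparison of sources. It called 1169 of the 22626 probe sets under oil and 361 under TCDD. Among these, Ms4a1 1423226_at passed under oil (adjusted p = 0.0204) and TCDD (0.033). Ighm 1427329_a_at (0.0266) and 1427351_s_at (0.035) passed there under oil. In the fit without a block, at an unadjusted p under 0.05, 5 members were on the lower side in emigrants under oil and 4 under TCDD. The shares of all probe sets were 4.82% and 4.2%. Those under oil were both Ms4a1 probe sets, Cd79b, and Ighm 1427329_a_at and 1427351_s_at. Those under TCDD were the same without 1427351_s_at. Probe sets of 1 gene are thus counted more than once. On the higher side there were 0 members in either comparison, against 4.13% of all probe sets under oil and 3.24% under TCDD. The emigrant and thymocyte arrays did not overlap for 12 members with lower values in emigrants under oil, against 18.8% of all probe sets, and for 9 under TCDD, against 15.1%. Of these, 4 under oil and 3 under TCDD were dim on all arrays. They did not overlap with higher values for 2 members under oil, against 19.9%, and for 1 under TCDD, against 20.6%. The median log2 difference of the members was -0.18 under oil and -0.07 under TCDD, beside 0.01 and 0.04 over all probe sets. The comparisons under oil and under TCDD use separate arrays but are not independent. Same-numbered oil and TCDD arrays deviated together within a source (r = 0.52 in emigrants and 0.73 in thymocytes).

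An average of the oil and TCDD differences, 4 emigrant arrays against 4 thymocyte arrays, was added after the data were seen. Its fit takes the 4 arrays of a source as independent, although same-numbered ones deviated together. Its SEs and p-values can therefore be too small. In it 14 of all probe sets (0.0619%) and 0 members passed an adjusted p of 0.05 in limma. The member nearest to it was Ighm 1427329_a_at, with a log2 difference of -1.37 (SE 0.14, limma adjusted p = 0.0522). Ms4a1 1423226_at had -2.72 (SE 0.5, limma adjusted p = 0.0928) and Ms4a1 1450912_at -1.52 (SE 0.27, adjusted p = 0.0826). Cd79b had -1.60 (SE 0.29, limma adjusted p = 0.0914), Ighm 1427351_s_at -1.24 (SE 0.28, adjusted p = 0.134) and Fcer2a 1422122_at -0.31 (SE 0.1, adjusted p = 0.25). These 6 were the members with an unadjusted p under 0.05, all on the lower side in emigrants, where 7.62% of all probe sets lay, and 6.52% lay on the higher side with 0 members. The source arrays did not overlap for 8 members, all lower in emigrants and 2 of them dim on all arrays, against 5.64% of all probe sets. Higher values in emigrants without overlap were found for 6.12% of all probe sets and 0 members. Without both emigrant arrays numbered 2, the difference was -2.38 for Ms4a1 1423226_at, -1.29 for Cd79b, -1.27 for Ighm 1427329_a_at, -0.84 for Ighm 1427351_s_at and -0.18 for Blk, and 0 probe sets passed the adjusted threshold.

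**Figure D3:**
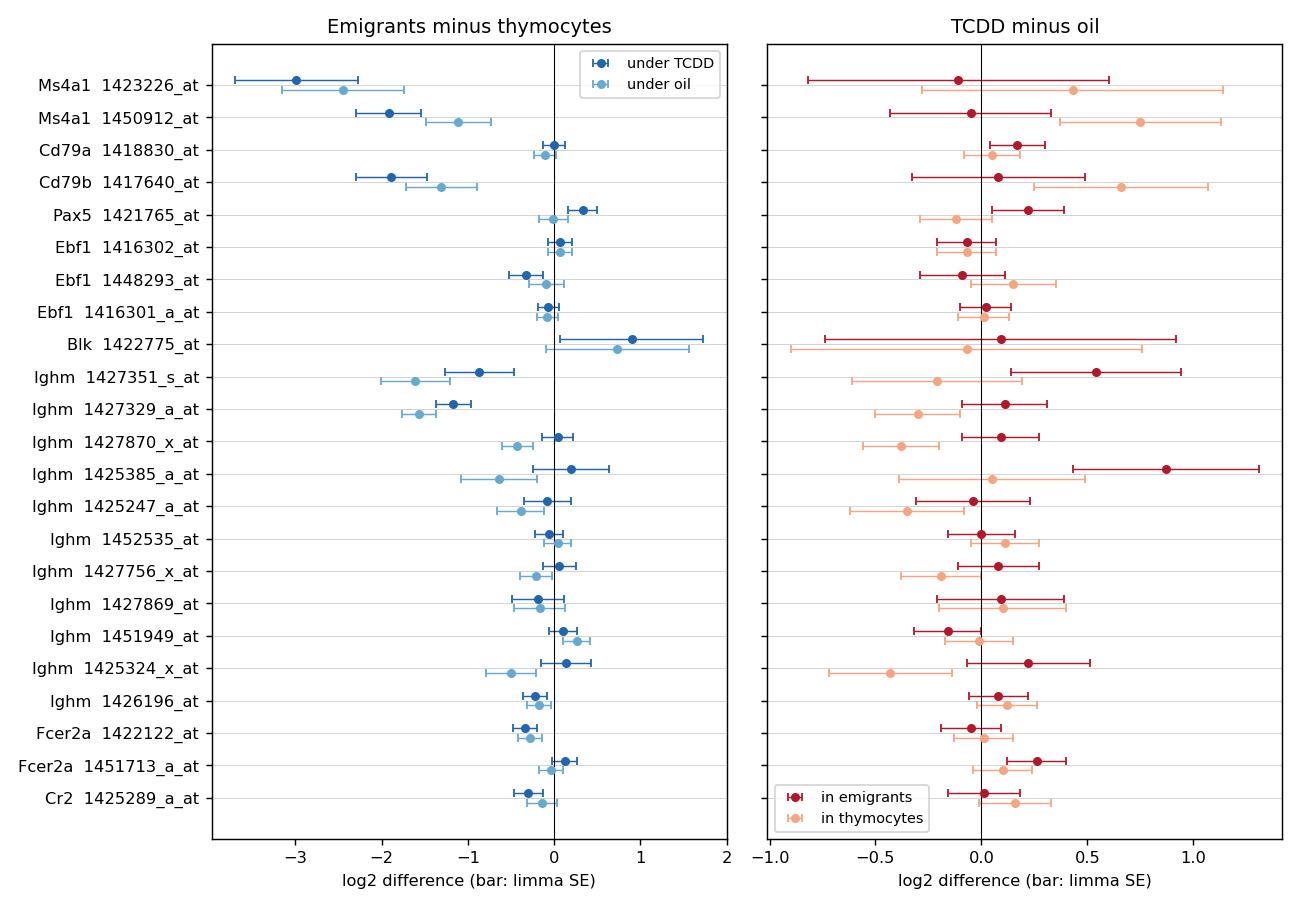
Log2 differences (x axes) of the 23 member probe sets with limma standard errors as whiskers; the left panel gives emigrants minus thymocytes under TCDD and under oil, the right panel TCDD minus oil in emigrants and in thymocytes, each panel with its own range. Ms4a1, Cd79b and a pair of Ighm probe sets lie left of 0 in the left panel, and most whiskers of the right panel cross or approach 0.

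The second question was whether TCDD went with a different level of these genes within a source. In neither source did a member pass the adjusted or the unadjusted threshold of 0.05 in limma, fitted without a block of replicate numbers. Over all probe sets, 0.0% passed the adjusted one in either source, and 1.21% the unadjusted one in emigrants and 1.38% in thymocytes. In emigrants the log2 differences of TCDD minus oil ran from -0.16 to 0.87 with a median of 0.08, beside 0.02 over all probe sets. The largest, 0.87 (SE 0.44, limma adjusted p = 1), was that of Ighm 1425385_a_at. It was -0.11 for Ms4a1 1423226_at, 0.08 for Cd79b, 0.09 for Blk and 0.54 for Ighm 1427351_s_at. The 2 TCDD arrays lay above the 2 oil arrays for 5 members, against 13.7% of all probe sets, and below them for 0, against 10.9%. Those 5 were all dim, Cd79a, Pax5, and a probe set each of Ebf1, Ighm and Fcer2a, with differences from 0.02 to 0.26.

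In thymocytes the log2 differences of TCDD minus oil ran from -0.43 to 0.75 with a median of 0.01. They were 0.43 for Ms4a1 1423226_at and 0.66 for Cd79b, and both came from the arrays numbered 2. Between the arrays numbered 1 the TCDD and oil values of Ms4a1 1423226_at differed by -0.01 and those of Cd79b by -0.09, and between the arrays numbered 2 by 0.86 and 1.40. Of the 11 Ighm probe sets, 7 had a difference below 0 and 4 above it, from -0.43 to 0.12. The 2 TCDD arrays lay below the 2 oil arrays for 4 members, all of them Ighm, against 11.0% of all probe sets. Their differences were -0.21 for 1427351_s_at, -0.30 for 1427329_a_at, -0.38 for 1427870_x_at and -0.43 for the dim 1425324_x_at. The TCDD arrays lay above the oil arrays for 2 members, Ms4a1 1450912_at and Fcer2a 1451713_a_at, against 9.7%. In a limma interaction test of whether the TCDD difference was unlike in emigrants and thymocytes, 0 members passed the unadjusted threshold of 0.05, against 1.28% of all probe sets, and 0 the adjusted one, against 0.0%. The SEs of these interactions ran from 0.17 to 1.17 on the log2 scale.

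The other genes of the pathway were read from lists chosen with earlier results of these data known. They are given by the average over both treatments, whose SEs and p-values can be too small, as said above. None of their probe sets passed the adjusted threshold in it (limma). Counts below are of an unadjusted p under 0.05, to be read beside the 7.62% of all probe sets on the lower side and the 6.52% on the higher side in this average. Of 25 probe sets for receptor signalling and coreceptors, 3 were on the lower side in emigrants and 0 on the higher side (2 and 1 without both emigrant arrays numbered 2), with a median of -0.15 beside 0.03 over all probe sets. They were 1 probe set each of Fcgr2b, the inhibitory Fc receptor (1435477_s_at, -1.0, SE 0.15), Syk, the kinase recruited to CD79 (1418261_at, -0.94, SE 0.25), and Cd22, an inhibitory lectin (1419768_at, -0.59, SE 0.18). The other probe sets of these genes had differences of -0.07, 0.03 and 0.04 for Fcgr2b, -0.22 and -0.15 for Syk, and -0.06 for Cd22. Fcgr2b 1435477_s_at was at 4.98 and 5.53 in emigrants TCDD, 4.56 and 4.68 in emigrants oil, 5.84 and 5.64 in thymocytes TCDD, and 6.09 and 6.19 in thymocytes oil. The brightest Fcgr2b probe set, 1435476_a_at, overlapped between the sources, at 7.91 to 8.57 in emigrants and 8.13 to 8.37 in thymocytes.

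Of 10 probe sets for other immunoglobulin chains, 5 were on the lower side and 0 on the higher side (3 and 0 without both emigrant arrays numbered 2), with a median of -0.77. They cover 4 genes only, Igha, Jchain, Ighg3 and Iglv1, and no kappa chain. The other 5 probe sets were dim on all arrays. These were those of Ighg3, with differences of -0.13, -0.09, 0.01 and -0.21, and Iglv1 1427292_at, with -0.06. The 3 of Igha, the alpha heavy chain, had differences of -1.96, -2.10 and -2.38, and of -1.45, -1.35 and -1.52 without those 2 arrays. Jchain, which joins secreted immunoglobulin M and A, was at 9.09 and 4.88 in emigrants TCDD, 7.88 and 4.23 in emigrants oil, 9.35 and 10.09 in thymocytes TCDD, and 9.45 and 10.03 in thymocytes oil. Its 2 lowest values were those of the emigrant arrays numbered 2, the same arrays that were highest for Blk, and its difference was -3.21 with them and -1.24 without them. Of 14 plasma cell probe sets, among them Jchain again, 6 were lower and 1 higher. Edem1, a factor of endoplasmic reticulum protein disposal, had -1.53 and -0.70. Xbp1, the factor of secretory expansion, had -0.64, -0.62, -0.48 and -0.24. The 4 probe sets of Sdc1, the plasma cell surface protein CD138, had differences on the other side, of 1.11, 0.62, 1.59 and 0.22, and of 0.45, 0.37, 0.43 and 0.17 without both emigrant arrays numbered 2. Prdm1, a plasma cell transcription factor, had 0.32 and Derl3, a protein of endoplasmic reticulum disposal, 0.33.

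Of 28 probe sets for B lineage transcription factors, 4 were on the lower side and 2 on the higher side (2 and 5 without both emigrant arrays numbered 2), and the median was near 0. Spib, an ETS factor of B and plasmacytoid dendritic cells, had -1.19, Irf8 -0.77 by 1416714_at and 0.14 by 1448452_at, and Pou2af1, the octamer coactivator, -1.94, or -1.05 without those 2 arrays. Both on the higher side were probe sets of Foxo1, a forkhead factor that T cells also use, with 1.25 and 1.5, and its other probe sets had 0.47 and 0.00. Bach2, a repressor of plasma cell differentiation, had 0.96. Without the 2 arrays the first 3 of these Foxo1 values were 1.79, 2.36 and 0.98, and that of Bach2 was 1.91. Pou2af1 was at 6.08 and 3.51 in emigrants TCDD, 5.50 and 4.51 in emigrants oil, 6.88 and 7.66 in thymocytes TCDD, and 5.81 and 7.01 in thymocytes oil. Among 21 probe sets for surface and survival proteins of mature B cells, 4 were lower and 3 higher (2 and 2 without both emigrant arrays numbered 2). Ltb, lymphotoxin beta, which T cells also make, had 2.48, against -0.82 for Tnfrsf13b, the receptor TACI, and -0.85 for a probe set of Fcrla, an Fc receptor-like protein.

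Of 11 probe sets for the pre-B receptor and V(D)J recombination, shared in part with T cell precursors, 5 were lower and 2 higher. The surrogate light chain gene Vpreb1 was dim on all arrays, between 4.16 and 4.41, and Igll1 lay between 4.41 and 5.25. The recombinase gene Rag1 was at 5.10 and 3.75 in emigrants TCDD, 3.89 and 9.81 in emigrants oil, 10.21 and 9.63 in thymocytes TCDD, and 9.85 and 9.33 in thymocytes oil. Emigrants oil 2 thus lay among the thymocyte values of Rag1 while it lay among the emigrant values of Ms4a1 and Cd79b. Il7r, the interleukin 7 receptor of lymphoid precursors and T cells, had differences of 2.02 and 1.66, the higher values being in emigrants.

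**Figure D4:**
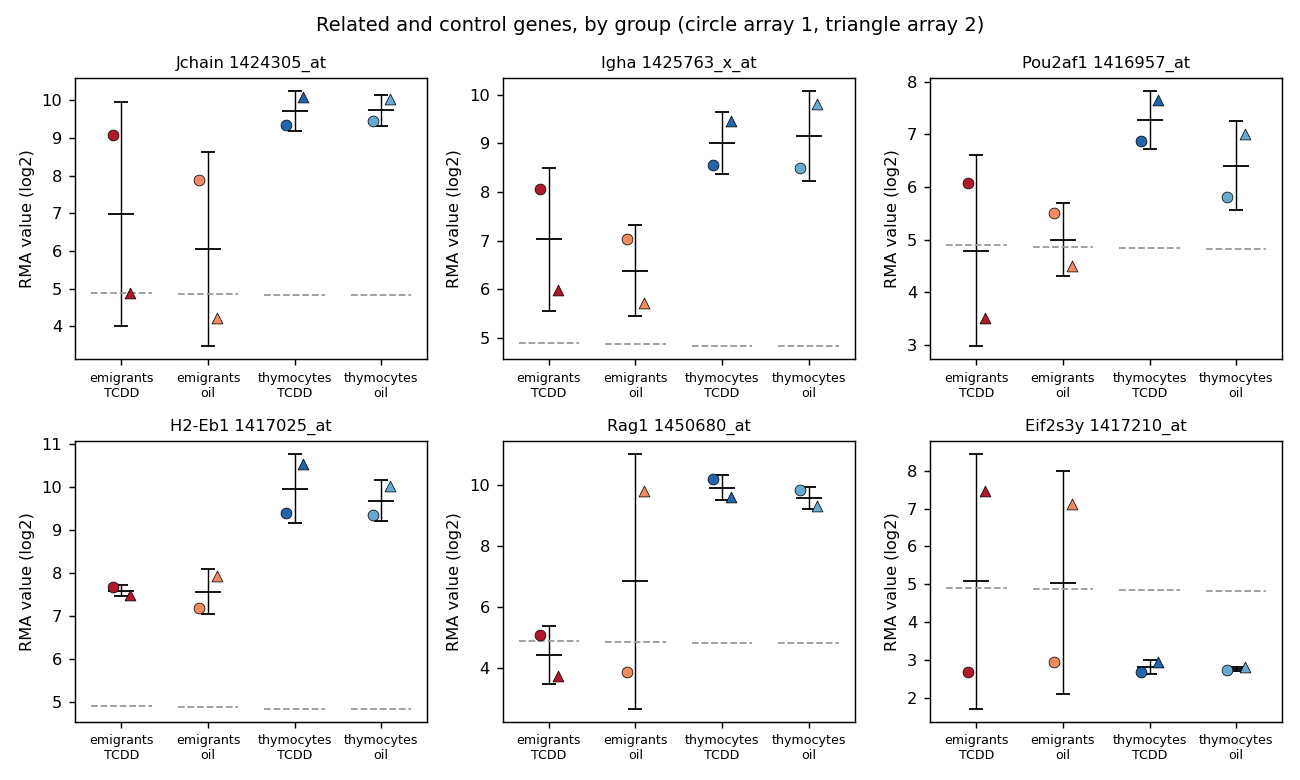
Log2 RMA values (y axis, each panel with its own range) of 5 related genes and of the Y-linked control Eif2s3y by group, drawn with circles and triangles for the arrays numbered 1 and 2, means, 1 SD whiskers (n = 2) and the mean array medians as dashed lines. Jchain and Pou2af1 are lowest in the emigrant arrays numbered 2, H2-Eb1 is below 8 on all emigrant arrays, and Eif2s3y is above 7 on the emigrant arrays numbered 2 alone.

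Markers of other cell types moved with the sources as well, and their part in the differences of the B cell genes was not tested. Of 12 probe sets for MHC class II presentation, which B cells, dendritic cells and macrophages share, 8 were lower in emigrants at an unadjusted p under 0.05, against 7.62% of all probe sets, and 0 higher, against 6.52%, with list means of 5.53 to 5.83 in emigrants and 6.38 to 7.02 in thymocytes. H2-Eb1 was at 7.68 and 7.49 in emigrants TCDD, 7.19 and 7.93 in emigrants oil, 9.39 and 10.53 in thymocytes TCDD, and 9.34 and 10.01 in thymocytes oil. Of 11 early T progenitor probe sets 4 were lower and 2 higher, with means of 5.90 to 6.12 in emigrants and 6.45 to 6.67 in thymocytes. Of 11 NK cell probe sets 4 were higher and 0 lower (5.37 to 6.55 and 5.49 to 5.81), and of 13 macrophage probe sets 2 were higher and 0 lower (5.65 to 6.97 and 5.64 to 6.14). Of 18 dendritic cell probe sets 1 was higher and 1 lower (5.04 to 5.23 and 5.09 to 5.34), of 13 T cell probe sets 1 and 3 (6.30 to 7.02 and 6.71 to 6.95), of 11 granulocyte probe sets 0 and 0 (5.61 to 8.19 and 6.18 to 7.52) and of 9 erythroid probe sets 1 and 0 (4.78 to 6.37 and 4.68 to 4.96). Without both emigrant arrays numbered 2 the higher and lower counts were 6 and 0 for NK cells, 2 and 3 for macrophages, 0 and 0 for dendritic cells, 3 and 2 for T cells, 1 and 0 for granulocytes and 4 and 0 for erythroid cells. The 3′ minus 5′ difference of the actin control is a sign of RNA quality. It was 4.68 and 3.79 in emigrants TCDD, 3.92 and 3.34 in emigrants oil, 4.31 and 3.06 in thymocytes TCDD, and 4.12 and 3.12 in thymocytes oil. That of Gapdh was 4.97 and 5.32, 4.81 and 4.91, 5.90 and 4.78, and 6.23 and 4.97 in the same order. Actin was thus higher on the array numbered 1 in every group, and Gapdh in the thymocyte groups only. The part of RNA quality in the member values was not tested.

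For members whose brightest probe set ranged over at least 1 log2 unit, the probe sets with the most similar course over the 8 arrays were named by the root mean square difference after both were centred on their own means. For Ms4a1 1423226_at these were H2-Eb1 (0.50), Igha (0.52) and H2-Aa (0.55), of which Igha encodes an immunoglobulin chain and the others MHC class II chains. For Cd79b they were Endou (0.29), Spint2 (0.32) and H2-DMa (0.35), and for Ighm 1427351_s_at Spint2 (0.26), Snrnp27 (0.29) and Skp1 (0.30). For Blk they were Il1r1 (0.20), Hey1 (0.21) and Lif (0.22), none of them a B cell receptor gene. Il1r1 was at 4.47 and 7.19 in emigrants TCDD, 5.09 and 6.77 in emigrants oil, 5.51 and 4.73 in thymocytes TCDD, and 5.42 and 4.79 in thymocytes oil, high on the same 2 arrays as Blk. The points share arrays and the choice was made over all probe sets with 1 symbol, so closeness is a description.

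The order of the groups by mean differed between the members. It was thymocytes TCDD, thymocytes oil, emigrants oil and emigrants TCDD for Ms4a1 1423226_at (7.94, 7.51, 5.06 and 4.95). It was thymocytes TCDD, thymocytes oil, emigrants TCDD and emigrants oil for Cd79b (7.18, 6.53, 5.29 and 5.21). Neighbours of the same source overlapped in both genes, and the step between the sources was the only one without overlap. For Ighm 1427329_a_at the order was thymocytes oil, thymocytes TCDD, emigrants TCDD and emigrants oil (8.39, 8.09, 6.92 and 6.82), and the thymocyte groups did not overlap either. For Blk the emigrant groups came first (8.30 under TCDD and 8.21 under oil, before 7.47 in thymocytes oil and 7.40 in thymocytes TCDD), with overlap at every step.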

How the data were processed

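RNA of sorted cells was amplified and hybridised to Affymetrix arrays, per the labels' protocols. The authors deposited 1 table of log2 values, for which the submitters' processing notes name RMA without a version. RMA makes the arrays' value distributions alike, so a shift common to most genes would not be seen, and it compresses differences of dim probe sets. Genome build and detection calls are not given in the sources used here. The deposited log2 values ran from 2.54 to 13.9, and the number of arrays limits the precision.

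Names came from the platform annotation (20393 with 1 symbol, 691 with several, 1606 with none), with symbols updated by gene identifier for 20364. The 64 control probe sets were left out, and the other 22626 entered a limma fit (version 3.58.1, R 4.3.3; lmFit, eBayes, group means of 8 arrays, 4 residual degrees of freedom, two-sided, Benjamini-Hochberg adjustment over all 22626, threshold 0.05). The median residual SD was 0.214. Folds are given only where neither group has both arrays below their array medians. All member probe sets are plotted, and the dim ones are given in part by their range. Of each related list, the text names members among the 3 with the smallest p, and a few others (Jchain, Rag1, Vpreb1, Igll1, Cd3g, Thy1, Sdc1, Prdm1, Derl3, Foxo1, Bach2) that were chosen after their values were seen. The members and lists were chosen with earlier results of these data known.

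On simulated arrays of the oil source comparison with 22626 probe sets, the code recovered 32.8% of changes of 1 log2 unit, 70.1% of 2 and 89.4% of 4, with 5 unchanged probe sets called. The simulated noise was independent between arrays, around 1 mean for all groups. It lacked the deviations that same-numbered arrays share here, so these rates need not hold for the deposited arrays. Alternatives were a repeated quantile normalization, median centring, only brighter probe sets, 1 probe set a gene, a trended robust prior, a block of replicate numbers (over all arrays or within each source), fits of the 4 arrays compared alone, the group that the Treatment field gives emigrants oil 1, each array left out and, added after the data were seen, both emigrant arrays numbered 2 left out.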

Additional observations from a re-analysis of the deposited data

Results flagged for a closer look

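Eif2s3y is a gene of the Y chromosome, outside the B cell genes compared, and all mice were labelled female. Its probe set 1417210_at was at 7.46 in emigrants TCDD 2 and 7.12 in emigrants oil 2, above the 2.69 to 2.95 of the other 6 arrays. Xist, which is transcribed from the inactive X chromosome, was at 7.41 and 8.11 on those 2 arrays by probe set 1427262_at, against 8.17 to 11.52 on the others. Its other probe sets were at 4.63 and 4.35 (1427263_at), against 4.05 to 7.08, and at 9.36 and 10.17 (1436936_s_at), against 10.49 to 11.18. With each Xist probe set the lowest of the other 6 arrays was thymocytes oil 2 (8.17, 4.05 and 10.49), where Eif2s3y was at 2.80. Low Xist values were thus not confined to the 2 arrays with the Eif2s3y signal. The 5 probe sets of the Y-linked genes Uty and Kdm5d lay between 3.03 and 5.07 on all 8 arrays. Kdm5d 1424903_at was highest on the same 2 arrays, at 3.80 and 3.84, against 3.04 to 3.49 on the others. The 5.07 was that of Kdm5d 1452562_at in emigrants TCDD 2, but in emigrants oil 2 it was at 4.45, its lowest. The other Uty and Kdm5d probe sets did not set these arrays apart. The same 2 arrays held the highest values of Blk and the lowest of Jchain.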

How the results depend on the processing

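No member passed the adjusted threshold in the 5 planned comparisons, and of 1907 values under the alternatives 1756 stayed on the same side of the threshold with a similar size, 147 moved in size and 4 passed the threshold. Those 4, all with the replicate block within each source, were Ms4a1 1423226_at under oil (adjusted p = 0.0204 in limma) and under TCDD (0.033), and under oil Ighm 1427329_a_at (0.0266) and Ighm 1427351_s_at (0.035). That block called 1169 probe sets under oil, 361 under TCDD, 1 for TCDD in thymocytes and 2959 for both treatments together, against 0, 0, 0 and 14 without it. The replicate block over all arrays called 0 probe sets in each planned comparison and 226 for both treatments together. For a comparison of sources, the block within each source takes the spread between replicates out of the SEs, so its p-values can be too small. The labels state no pairing by the replicate numbers. Even so, same-numbered arrays deviated together within a source (r = 0.52 in emigrants, 0.73 in thymocytes) and not across sources (-0.15 to 0.12). Emigrants TCDD 1 correlated more closely with emigrants oil 1 (Spearman 0.989) than with emigrants TCDD 2 (0.951). Thymocytes TCDD 2 likewise lay closer to thymocytes oil 2 (0.986) than to thymocytes TCDD 1 (0.965). With the Treatment field for emigrants oil 1 the counts were 1 under oil, 16 under TCDD, 1 for TCDD in emigrants, 1 for the interaction and 88 for both treatments. A trended robust prior gave 1 under TCDD and 8 for both treatments, repeated quantile normalization 35 and only brighter probe sets 109 for both treatments. Leaving out 1 array gave 0 to 14 under TCDD (14 without emigrants TCDD 1). For both treatments it gave 0 to 76: 76 without emigrants TCDD 1, 48 without emigrants oil 2, 2 without emigrants oil 1, and 0 without emigrants TCDD 2 or any of the 4 thymocyte arrays. Leaving out both emigrant arrays numbered 2 gave 0. An array left alone in its group is assumed to vary like the others. For both treatments, 363 member values gave 350 on the same side of the threshold, 1 moved and 12 past it, 6 of these being Ighm 1427329_a_at, whose adjusted p ran from 0.0085 to 0.211 in limma over 16 alternatives. The sign turned in 130 of the 1907 values and in 9 of these 363, none of them past the threshold. Among the brighter members those of both treatments were Blk (to -0.18) and Ighm 1425385_a_at (to 0.09 and 0.21). For TCDD minus oil the smallest adjusted p of a member under the alternatives was 0.839 in emigrants and 0.946 in thymocytes. The causes were not tested. A fit of only the 4 arrays compared could not be made for the interaction or both treatments, and dim probe sets have no value among brighter ones. Without signal over background per probe, dim members have no bound.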

Other observations

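Values of a few genes outside the named members differed in which emigrant arrays carried them. Dntt, the polymerase that adds nucleotides at V(D)J joints, was at 11.62 and 6.09 in emigrants TCDD, 9.82 and 10.68 in emigrants oil, 12.45 and 12.43 in thymocytes TCDD, and 12.41 and 12.84 in thymocytes oil by probe set 1449757_x_at. Sdc1, the plasma cell surface protein CD138, was at 4.97 and 7.06 in emigrants TCDD, 5.11 and 5.67 in emigrants oil, 4.72 and 4.46 in thymocytes TCDD, and 4.55 and 4.63 in thymocytes oil by probe set 1415943_at. It was thus highest in emigrants TCDD 2, where Jchain was at 4.88. Iglv1, a lambda light chain segment, was at 4.63 and 4.60 in emigrants TCDD, 4.40 and 4.57 in emigrants oil, 5.08 and 6.65 in thymocytes TCDD, and 4.92 and 6.86 in thymocytes oil by probe set 1430523_s_at, highest in the thymocyte arrays numbered 2, as Ms4a1 was. These genes were chosen after their values were seen.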
